A study of Mus musculus with 12 samples.

Results

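Effector OT-I cells were compared with naive OT-I cells across all genes, and the genes that carry surface contact, signalling, metabolism and chromatin are described here. The comparison rests on 6 of the 12 bulk RNA-seq libraries of the series, 3 effector and 3 naive, taken by their titles. OT-I cells are CD8 T cells of mice with a transgenic receptor for an ovalbumin peptide, and every group of the series carries that receptor. Per the labels, effector cells came out of 5 days of culture with antigen, and naive cells were taken straight from the lymph nodes of tumour-free OT-I animals. The other 6 libraries, from OT-I cells sorted out of B78ChOVA melanomas, entered the low-count filter, the scaling and the estimate of the spread. The antigen dose, the cytokines added and the cells that started the culture are not stated in the available sources, so effects of antigen and of culture cannot be told apart. No label says that libraries of a group came from separate mice or cultures, so the p-values measure the spread between these libraries, which may be technical.

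A naive CD8 T cell circulates through lymph nodes, held quiescent by few receptor signals and by factors such as KLF2 that keep homing receptors on. Antigen with costimulation switches on the IL-2 receptor and cytotoxic genes, remodels surface sugars and adhesion molecules, and drives growth through MYC and mTOR with new ribosomes, nucleotides and divisions. Chromatin enzymes then fix parts of the new state. After antigen is cleared, growth and division programmes are known to subside while many surface and chromatin changes persist.

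Transcripts of the IL-2 receptor alpha chain and the interferon gamma receptor were higher in effector than in naive cells, and lower were those of the IL-6 and IL-36 receptors, CXCR4 and the adaptor TRAT1. More lysosome and redox genes were called higher than lower, and more genes of ribosome assembly lower than higher. Chromatin genes moved in both directions, with Nsd2 and Hmgb2 higher and Tet1 and Hmgn1 lower. The sign of the median change of mitosis genes, few of which were called, and the size of the granzyme changes depended on 1 library, effector replicate 2. Of all calls, 73.7% stood without it.

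Levels are CPM, counts scaled to a common library size with TMM factors, and do not correct for gene length, so they are compared between libraries and not between genes. A gene was called where edgeR's quasi-likelihood test, over the 16426 genes that passed the filter on low counts, gave a Benjamini-Hochberg adjusted p under 0.05. By that rule 4098 genes, or 24.9% of those tested, were called, 2395 higher in effector cells (14.6%) and 1703 lower (10.4%). The median log2 fold change of all genes was 0.01. Scaling by total counts instead put it at -0.10 and gave 1544 higher and 2508 lower. The fit of the effector and naive libraries alone gave 1935 higher and 1891 lower, so the excess of higher genes depends on the processing. Among the called genes, 818 rose and 840 fell by at least 2-fold, and the groups did not overlap in 3955, against 40.2% of all genes tested. Every called gene named below had groups that did not overlap, kept its call under all 22 alternative analyses and moved by less than 1.5-fold when any 1 of the 12 libraries was left out, except where the text says otherwise.

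Gene counts per library were 12181783 to 14499885 in effector and 11937053 to 12793008 in naive libraries. Reads outside genes made up 21.6% to 22.2% of effector and 25.8% to 30.2% of naive libraries. The 5 markers of CD8 T cells summed to 3902.5 to 4262.9 CPM in effector and 3220.1 to 3468.4 CPM in naive libraries. Cd4 was at 0.0718 to 0.945 CPM in effector and 0.153 to 0.716 CPM in naive libraries, and Ncr1, Cd14 and Ly6g had no count in any of the 6. The 3 NK cell markers, Ncr1 among them, summed to 12.4 to 23.1 CPM in effector and 33.7 to 62.4 CPM in naive libraries. The 1 NK cell marker that passed the filter was called lower. Macrophage and monocyte markers summed to 1.85 to 6.36 CPM in effector and 9.63 to 16.6 CPM in naive libraries, with 4 of 6 called lower, and B cell markers to 8.33 to 13.4 CPM in effector and 18 to 21.3 CPM in naive libraries, with none called. Erythroid markers summed to 1.89 to 2.63 CPM in effector and 4.13 to 22.1 CPM in naive libraries. Markers of CD4 T cells summed to 9.12 to 14.1 CPM in effector and 2.29 to 2.94 CPM in naive libraries, with 2 of 3 called higher, as were 2 of 5 dendritic cell markers. The part of these traces in the results was not tested. In bulk libraries fewer cells of a type and less RNA per cell cannot be told apart.

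Protein-coding genes were ranked by log2 fold change where their mean log2 CPM was at least 4, the groups did not overlap and the call stood in each of the 6 fits without 1 effector or naive library. The genes described next were among the 10 highest and 10 lowest of that ranking, which leaves out genes of lower level with larger changes. Ctla4, the inhibitory receptor that competes with CD28, rose by 7.93 on the log2 scale, and by 8.04 without effector replicate 2. The chemokine receptor Cxcr3 and the receptor Slamf7 had log2 fold changes of 4.22 and 4.12, and 4.22 and 4.08 without that library. Fam129a, which encodes the stress protein Niban, was at 49, 80.2 and 54.2 CPM in effector libraries, against 8.42, 9.32 and 4.67 CPM in naive libraries (log2 fold change 3.03, SE 0.25, adjusted p = 6.79e-06). Oas2, an enzyme of antiviral defence, fell by 5.31 on the log2 scale. Mtss1, which shapes membranes at actin-rich edges, was at 11.3, 5.25 and 16.8 CPM in effector libraries, against 56.4, 56.6 and 60 CPM in naive libraries (log2 fold change -2.37, SE 0.48, adjusted p = 0.00725). Effector replicate 2 had the lowest Mtss1 level, and the log2 fold change without it was -2.04. Ccr9, the receptor for homing to the gut, was at 95.8, 46.7 and 13.5 CPM in effector libraries, against 277, 282 and 458 CPM in naive libraries (log2 fold change -2.70, SE 0.60, adjusted p = 0.0121), and missed the threshold with the 6 libraries alone (adjusted p = 0.074), with a replicate block (log2 fold change -2.97, adjusted p = 0.204) or with the 6 libraries less effector replicate 2 (log2 fold change -2.66, adjusted p = 0.194); its log2 fold change was -3.54 without effector replicate 1.

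Receptors for cytokines changed in both directions. Il2ra (ENSMUSG00000026770.5, chromosome 2, 11642807 to 11693193), the alpha chain that gives the IL-2 receptor its high affinity, was at 101, 193 and 188 CPM in effector libraries, against 0.961, 1.75 and 1.68 CPM in naive libraries (log2 fold change 6.77, SE 0.39, adjusted p = 2.2e-06). Every effector library lay far above every naive one, with a fold change of 109.6. Ifngr1, the ligand-binding chain of the interferon gamma receptor, was at 483, 602 and 514 CPM in effector libraries, against 175, 149 and 142 CPM in naive libraries (log2 fold change 1.78, SE 0.12, adjusted p = 6.14e-08). Il10ra of the IL-10 receptor and Il12rb2 of the IL-12 receptor rose as well, with log2 fold changes of 1.99 and 3.59. In the other direction, Il6ra (ENSMUSG00000027947.11, chromosome 3, 89864059 to 89913196), the chain that binds IL-6, was at 64.9, 29.7 and 35.8 CPM in effector libraries, against 260.3, 274 and 246 CPM in naive libraries (log2 fold change -2.58, SE 0.31, adjusted p = 0.00026). Its signalling partner Il6st averaged 329 ± 69.4 CPM in effector cells and 770.1 ± 56 CPM in naive cells (log2 fold change -1.23, SE 0.12, adjusted p = 3.07e-06). Il1rl2, the receptor for IL-36 cytokines, was nearly absent from effector cells at 0.863, 1.38 and 0.851 CPM in effector libraries, against 21, 17.9 and 11.9 CPM in naive libraries (log2 fold change -4.04, SE 0.32, adjusted p = 3.42e-07). Of 33 cytokine receptors tested, 11 were called higher and 6 lower (51.5% called, against 24.9% over all genes). Without effector replicate 2 the counts were 11 and 4. Over all genes 11.2% were called higher and 7.9% lower without that library, or 19.1% in all. Cytokine receptors called lower also numbered 4 when any 1 naive library was left out, and 5 without effector replicate 1 or 3. Il7r, the IL-7 receptor kept by naive and memory cells, overlapped between the groups at 884 to 1410.0 CPM in effector and 662 to 898 CPM in naive libraries and missed the threshold (log2 fold change 0.63, SE 0.38, adjusted p = 0.281), although the fit of the 6 libraries with a replicate block called it higher (log2 fold change 0.57, adjusted p = 0.000309). The 6 libraries less effector replicate 2 also gave a call of higher for Il7r.

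Of 15 genes of lymph node homing and egress 8 were called lower and 2 higher (66.7% called, against 24.9% over all genes). Cxcr4, the receptor for CXCL12, was at 15.4, 17.2 and 14.1 CPM in effector libraries, against 93.6, 66.8 and 67.6 CPM in naive libraries (log2 fold change -2.29, SE 0.14, adjusted p = 2.49e-08). Klf2, the transcription factor of quiescence and homing, averaged 23.3 ± 4.17 CPM in effector cells and 56.7 ± 10.4 CPM in naive cells (log2 fold change -1.28, SE 0.23, adjusted p = 0.00076). Cd69, which holds T cells in tissue by removing S1PR1 from the surface, was at 16, 19.2 and 22.6 CPM in effector libraries, against 64.8, 87.1 and 77.3 CPM in naive libraries (log2 fold change -1.99, SE 0.24, adjusted p = 0.000104). All 3 effector libraries thus lay below all 3 naive ones for Cd69, a gene otherwise known for its rise within hours of activation. S1pr1 itself, the egress receptor, missed the threshold (log2 fold change -0.45, SE 0.44, adjusted p = 0.518), although the fit of the 6 libraries alone called it lower (log2 fold change -0.49, adjusted p = 0.00735). Fits of the 6 libraries with a replicate block or less effector replicate 2 also called S1pr1 lower. Ccr4, a receptor for CCL17 and CCL22 and 1 of the 2 genes that rose, averaged 20.9 ± 4.02 CPM in effector cells and 5.31 ± 1.5 CPM in naive cells (log2 fold change 1.98, SE 0.45, adjusted p = 0.00594). The other, Cxcr5, the follicle-homing receptor, overlapped between the groups and its call ended under 12 alternatives, among them leaving out effector replicate 1 or 3, naive replicate 2 or 3, any 1 day 4 library or day 14 replicate 1 or 2, so that 1 gene of the list stayed called higher (log2 fold change 1.68, SE 0.49, adjusted p = 0.0313 with all libraries, and log2 fold change 1.09, adjusted p = 0.0967 without effector replicate 3).

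Adhesion molecules were called higher in 13 of 28 and lower in 2 (53.6% called, against 24.9% over all genes). Without effector replicate 2 the counts were 12 and 3. Those higher numbered 11 without effector replicate 3 or naive replicate 1 or 2. Cd44, the hyaluronan receptor by which antigen-experienced T cells are recognised, was at 48.5, 90.1 and 82.9 CPM in effector libraries, against 26.8, 17.7 and 25.5 CPM in naive libraries (log2 fold change 1.66, SE 0.21, adjusted p = 0.000174). Ly6a, which encodes the surface protein Sca-1, was at 315, 504 and 427 CPM in effector libraries, against 40.2, 77.6 and 32.4 CPM in naive libraries (log2 fold change 3.05, SE 0.36, adjusted p = 0.000322). Effector replicate 2 was the highest of the 3 for both genes, and the changes stood without it (log2 fold changes of 1.49 and 2.90). Itga2, the alpha chain of a collagen-binding integrin, was at 23.8, 24.3 and 23.7 CPM in effector libraries, against 9.53, 7.65 and 6.35 CPM in naive libraries (log2 fold change 1.61, SE 0.25, adjusted p = 0.000189), with nearly equal values in the 3 effector libraries. The count of those that fell was 1 without naive replicate 2, naive replicate 3, effector replicate 1 or effector replicate 3. Among 14 tetraspanins, membrane organisers, Tspan31, Tspan13 and Cd53 rose (log2 fold changes of 1.49, 0.71 and 0.45) and Tspan32 fell (log2 fold change -0.90, SE 0.17, adjusted p = 0.000859), joined by a second when day 14 replicate 1 or 2 was left out. The 28.6% of tetraspanins called was near the 24.9% over all genes.

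**Figure D1:**
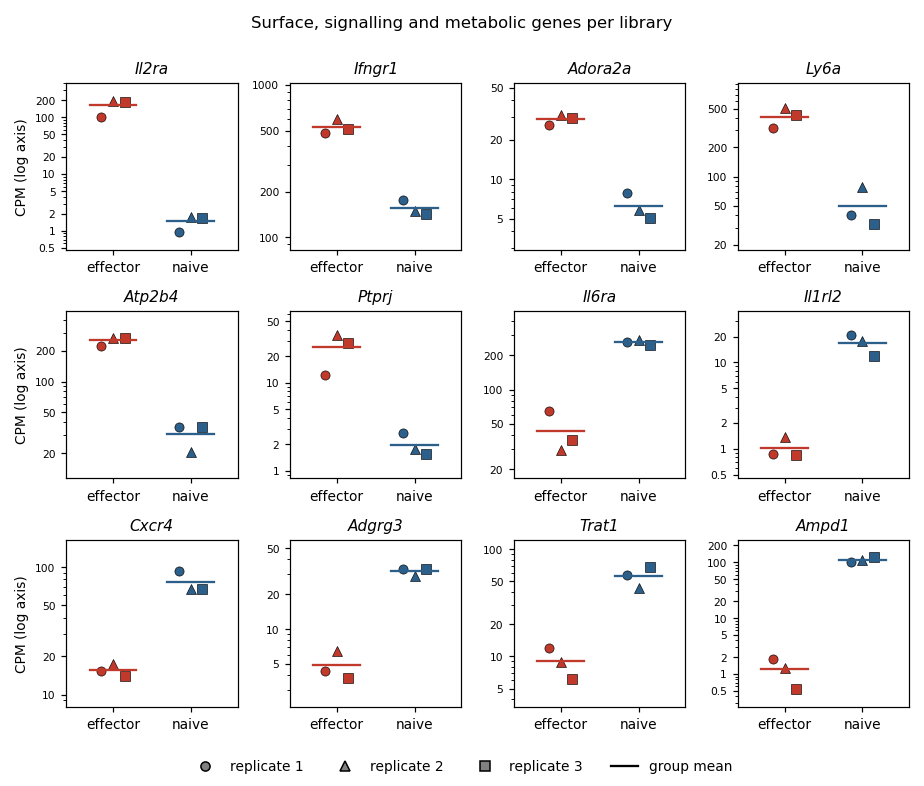
CPM on a log axis for 12 genes in the 3 effector libraries (left in each panel) and the 3 naive libraries (right), with marker shapes for replicates and bars for group means. The groups do not overlap in any panel, with Il2ra, Ifngr1, Adora2a, Ly6a, Atp2b4 and Ptprj higher in effector libraries and Il6ra, Il1rl2, Cxcr4, Adgrg3, Trat1 and Ampd1 lower.

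G protein-coupled receptors, which read lipids, nucleosides and hormones, were called higher in 12 of 28 and lower in 8, or 71.4% in either direction. The share over all genes was 24.9%. Adora2a, the adenosine receptor that raises cyclic AMP in T cells, was at 26, 31.1 and 29.3 CPM in effector libraries, against 7.83, 5.81 and 5.05 CPM in naive libraries (log2 fold change 2.20, SE 0.17, adjusted p = 2.35e-07). P2ry10, a receptor for lysophosphatidylserine, averaged 87.1 ± 5.32 CPM in effector cells and 37.7 ± 3.12 CPM in naive cells (log2 fold change 1.21, SE 0.10, adjusted p = 3.94e-07). Ptger2, a prostaglandin receptor, rose by 2.38 on the log2 scale. The adhesion receptor Adgrg3 was at 4.31, 6.45 and 3.79 CPM in effector libraries, against 33, 28.6 and 33.4 CPM in naive libraries (log2 fold change -2.71, SE 0.29, adjusted p = 6.31e-06). Adgrg5 of the same family averaged 51.2 ± 8.72 CPM in effector cells and 158 ± 9.53 CPM in naive cells (log2 fold change -1.63, SE 0.25, adjusted p = 0.000772). Leaving out naive replicate 2 reduced the number that fell to 5.

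Enzymes that build surface sugars moved in both directions, with 11 of 43 sialyl- and glycosyltransferases higher and 6 lower (39.5% called, against 24.9% over all genes). St8sia1, which extends gangliosides with sialic acid, averaged 302 ± 7.51 CPM in effector cells and 132 ± 24.2 CPM in naive cells (log2 fold change 1.20, SE 0.22, adjusted p = 0.0022). St3gal1, which caps O-glycans with sialic acid and so hides the sugars that peanut lectin binds, was at 92.9, 62.7 and 84.9 CPM in effector libraries, against 212, 219.5 and 221 CPM in naive libraries (log2 fold change -1.44, SE 0.14, adjusted p = 3.3e-06). Every effector value lay under the lowest naive value by over 2-fold. Galnt10, an enzyme that starts O-glycans, averaged 28.8 ± 7 CPM in effector cells and 73.2 ± 11.9 CPM in naive cells, and Mgat5, which branches N-glycans, averaged 27.8 ± 4.42 CPM in effector cells and 51.2 ± 8.14 CPM in naive cells (log2 fold changes of -1.34 and -0.88). Mgat1, which begins complex N-glycans, rose (log2 fold change 0.88, SE 0.20, adjusted p = 0.00466). Among 25 ion channels 9 rose and 3 fell (48% called, against 24.9% over all genes), or 7 and 6 with total counts as scaling. Those that rose included the potassium channel Kcna3 (log2 fold change 1.38, SE 0.18, adjusted p = 4.55e-05) and the calcium sensor Stim2 (log2 fold change 0.93, SE 0.12, adjusted p = 3.39e-05). The count of channels that fell was 1 without naive replicate 1 or 2 and 5 without day 14 replicate 2.

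T cell receptor components and proximal kinases were called higher in 11 of 29 and lower in 3 (48.3% called, against 24.9% over all genes). The counts were the same without effector replicate 2, and 8 and 5 with total counts as scaling. Cd28, the costimulatory receptor, was at 445, 454 and 456 CPM in effector libraries, against 246, 199 and 231 CPM in naive libraries (2-fold higher, SE 0.10 on the log2 scale, adjusted p = 3.51e-06). Themis, which tunes receptor signals, averaged 592 ± 107 CPM in effector cells and 296 ± 39.2 CPM in naive cells, and the phospholipase Plcg1 averaged 501 ± 32.7 CPM in effector cells and 319 ± 15.7 CPM in naive cells (fold changes of 2 and 1.57). Trat1, an adaptor that stabilises the receptor complex at the surface, went against them and was at 12.1, 8.86 and 6.11 CPM in effector libraries, against 57.9, 43.8 and 68.1 CPM in naive libraries (log2 fold change -2.65, SE 0.33, adjusted p = 0.000208). Txk, a kinase of the Tec family, also fell (log2 fold change -1.01, SE 0.15, adjusted p = 0.00022). Trat1 was thus 6.28-fold lower in effector cells, while 11 of the 29 genes of the list were called higher.

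Brakes on receptor signals were called higher in 13 of 30 and lower in 6 (63.3% called, against 24.9% over all genes). The counts were 8 and 9 with total counts as scaling and 8 and 5 without effector replicate 1. Ptprj, a receptor phosphatase also known as CD148, was at 12.3, 34.7 and 28.4 CPM in effector libraries, against 2.66, 1.75 and 1.53 CPM in naive libraries (log2 fold change 3.65, SE 0.37, adjusted p = 3.78e-05). Effector replicate 1 had the lowest of the 3 values and still lay above every naive library. Ptpn22, the phosphatase that acts on LCK, averaged 772 ± 65.5 CPM in effector cells and 362 ± 8.98 CPM in naive cells (log2 fold change 1.09, SE 0.08, adjusted p = 2.3e-07), and the adaptor Dok2 and the cytokine inhibitor Socs1 rose with log2 fold changes of 1.38 and 1.29. Ptpn6, which encodes SHP-1, went the other way at 126, 158 and 139 CPM in effector libraries, against 239, 294 and 359.7 CPM in naive libraries (log2 fold change -1.08, SE 0.15, adjusted p = 0.000141). Pag1, a membrane adaptor that recruits the inhibitory kinase CSK, averaged 157 ± 11.2 CPM in effector cells and 313 ± 12 CPM in naive cells (1.99-fold lower, SE 0.10 on the log2 scale, adjusted p = 2.48e-06). Ubash3b, a phosphatase that acts on ZAP70, fell too (log2 fold change -0.98, SE 0.13, adjusted p = 4.21e-05). Dtx1, a ubiquitin ligase linked to anergy, fell by 4.50 on the log2 scale.

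In the Ras and MAP kinase cascade, 9 of 41 genes rose and 8 fell (41.5% called, against 24.9% over all genes). With total counts as scaling 7 rose and 14 fell. Rras2, a Ras relative expressed in lymphocytes, was at 47.5, 58.5 and 22.9 CPM in effector libraries, against 127, 131 and 128 CPM in naive libraries (log2 fold change -1.59, SE 0.29, adjusted p = 0.00256). Rasa2 and Nf1, which both switch Ras off, fell as well, with log2 fold changes of -1.09 and -1.09. Of the kinases, Mapk3 (ERK1), Mapk11 (a p38 kinase) and Map3k5 (ASK1) rose, by 0.81, 1.75 and 0.82 on the log2 scale. Among 22 MAP kinase phosphatases and Sprouty proteins 3 were called each way, or 2 higher and 5 lower with total counts as scaling. The 27.3% called was near the 24.9% over all genes. Spred1, an inhibitor of Ras activation, averaged 3.7 ± 1.34 CPM in effector cells and 16 ± 1.36 CPM in naive cells, and Dusp6, the phosphatase of ERK, averaged 4.8 ± 1.34 CPM in effector cells and 14.8 ± 3.11 CPM in naive cells (log2 fold changes of -2.10 and -1.62). Dusp22 rose (log2 fold change 1.57, SE 0.25, adjusted p = 0.000254), and only 1 of the 3 remained called higher when any 1 naive library was left out.

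Among genes of calcium handling, Atp2b4 (ENSMUSG00000026463.17, chromosome 1, 133699457 to 133801041), a plasma membrane pump that exports calcium, was at 220.4, 267 and 268 CPM in effector libraries, against 35.6, 20.6 and 35.7 CPM in naive libraries (log2 fold change 3.03, SE 0.18, adjusted p = 2.18e-07). In the whole list of 29 calcium and NFAT genes 8 rose and 3 fell (37.9% called, against 24.9% over all genes). With total counts as scaling 6 rose and 6 fell. Camk4, a calcium-dependent kinase, and the inositol trisphosphate receptor Itpr1 rose (0.95 and 0.49 on the log2 scale), and Itpkb, which consumes inositol trisphosphate, fell (log2 fold change -0.59, SE 0.13, adjusted p = 0.00404).

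Within the NF-kappaB pathway 10 of 32 genes rose and 6 fell (50% called, against 24.9% over all genes). With total counts as scaling 7 were called each way. Traf1, an adaptor of TNF receptors, was at 419, 451 and 441 CPM in effector libraries, against 175, 125 and 126 CPM in naive libraries (log2 fold change 1.62, SE 0.12, adjusted p = 1.27e-07). The subunits Nfkb1, Rel and Nfkb2 rose by 0.88, 0.74 and 0.67 on the log2 scale. Nfkbiz, an atypical inhibitor that sits on DNA, fell with values of 36.5, 50.6 and 28.6 CPM in effector libraries, against 90.7, 109 and 101 CPM in naive libraries (log2 fold change -1.38, SE 0.21, adjusted p = 0.000706). JAK and STAT genes were called higher in 9 of 24 and lower in none (37.5% called, against 24.9% over all genes). Those higher numbered 6 without effector replicate 2, 5 without effector replicate 3 and 4 with total counts as scaling. Without effector replicate 1, 1 was lower. Stat4, the transducer of IL-12 signals, averaged 203 ± 20.6 CPM in effector cells and 105 ± 6.28 CPM in naive cells (log2 fold change 0.95, SE 0.11, adjusted p = 1.5e-05).

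The PI3 kinase, AKT and mTOR list had 13 of 44 members higher and 7 lower (45.5% called, against 24.9% over all genes). With total counts as scaling it had 8 and 11, and without effector replicate 2 it had 9 and 7. Those higher also numbered 9 without effector replicate 1, naive replicate 2 or day 4 replicate 2. Pik3ip1, which inhibits PI3 kinase at the membrane, was at 297, 345 and 254 CPM in effector libraries, against 127, 124 and 137 CPM in naive libraries (log2 fold change 1.20, SE 0.13, adjusted p = 7.73e-06). Eif4ebp1, a repressor of cap-dependent translation that mTOR inactivates, averaged 9.18 ± 1.39 CPM in effector cells and 2.78 ± 0.531 CPM in naive cells (log2 fold change 1.72, SE 0.26, adjusted p = 0.000128). Phlpp1, a phosphatase of AKT, rose (log2 fold change 0.76, SE 0.12, adjusted p = 0.000299), and the catalytic subunits Pik3cg and Pik3cb fell (-0.83 and -0.72). Among 42 RGS, small GTPase and cytoskeleton genes 7 rose and 7 fell (33.3% called, against 24.9% over all genes). Without effector replicate 1, 4 fell, and with total counts as scaling 5 rose and 14 fell. Myo1f, a myosin of leukocytes, averaged 266 ± 77.5 CPM in effector cells and 71.2 ± 8.04 CPM in naive cells (log2 fold change 1.90, SE 0.18, adjusted p = 1.35e-05). Flna, the actin crosslinker filamin A, averaged 401 ± 47.5 CPM in effector cells and 779.6 ± 26.5 CPM in naive cells, and Ezr, which ties the membrane to actin, averaged 263 ± 7.33 CPM in effector cells and 354 ± 16.9 CPM in naive cells (log2 fold changes of -0.96 and -0.43).

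Of 60 transcription factors of T cells, 21 rose and 12 fell (55% called, against 24.9% over all genes). Myb, a factor of progenitors and stem-like T cells, was at 210.5, 240.0 and 215 CPM in effector libraries, against 35.5, 24.8 and 25 CPM in naive libraries (log2 fold change 2.96, SE 0.18, adjusted p = 1.33e-07). Runx2, a factor of long-lived memory cells, was at 71.3, 88.8 and 71.9 CPM in effector libraries, against 8.57, 12.3 and 8.65 CPM in naive libraries (log2 fold change 2.97, SE 0.14, adjusted p = 1.75e-09). For both genes every effector library lay far above every naive one, and the log2 fold changes without effector replicate 2 were 2.91 and 2.87. Tbx21, which encodes T-bet, averaged 17.6 ± 6.67 CPM in effector cells and 3.13 ± 1.31 CPM in naive cells (log2 fold change 2.49, SE 0.34, adjusted p = 0.000223). Ets2 and Egr3, which respond to receptor signals, fell (log2 fold changes of -1.36 and -1.29). Foxo1 of quiescence missed the threshold (log2 fold change -0.13, SE 0.09, adjusted p = 0.309), although total counts as scaling called it lower (log2 fold change -0.27, adjusted p = 0.0373). Myc, the driver of growth, overlapped between the groups at 85.9 to 130.4 CPM in effector and 101 to 139 CPM in naive libraries and missed the threshold (log2 fold change -0.30, SE 0.20, adjusted p = 0.303), while it was called lower without the low-count filter (log2 fold change -0.32, adjusted p = 0.0463) and with a replicate block (log2 fold change -0.35, adjusted p = 0.0381). Of 10 genes of the MYC and MAX network, 2 were called higher, both antagonists of MYC. The 20% called was below the 24.9% over all genes. Mxd4 was at 122, 159.8 and 151 CPM in effector libraries, against 64.1, 61 and 65.9 CPM in naive libraries (log2 fold change 1.18, SE 0.11, adjusted p = 1.2e-06), and Mxi1 averaged 26.7 ± 5.72 CPM in effector cells and 12.7 ± 2.09 CPM in naive cells (log2 fold change 1.07, SE 0.23, adjusted p = 0.00366). Leaving out effector replicate 3, day 4 replicate 2 or 3, or day 14 replicate 1 or 2 added 1 member called lower.

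**Figure D2:**
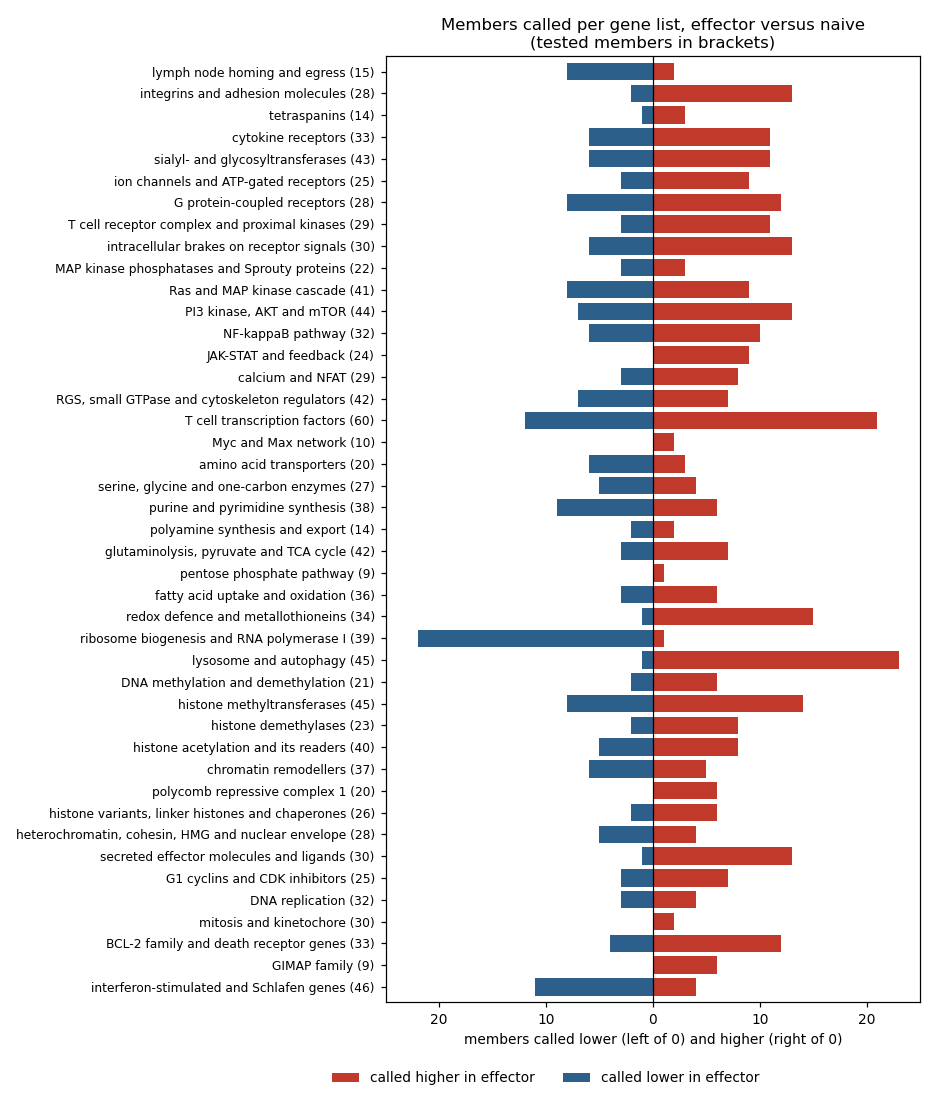
Number of members called in each of 43 gene lists, with members higher in effector libraries to the right of 0 and members lower to the left, and the number tested in brackets. Lysosome and autophagy genes extend furthest to the right (23) and ribosome biogenesis genes furthest to the left (22).

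Genes of ribosome assembly and RNA polymerase I were mostly lower, 22 of 39 against 1 higher, with a median log2 fold change of -0.42. Without effector replicate 2, or without naive replicate 2 or 3, 19 were lower and 1 higher. Over all genes tested the median was 0.01 and 10.4% were called lower. Polr1b, the second-largest subunit of RNA polymerase I, was at 25.1, 12.2 and 18.8 CPM in effector libraries, against 38.7, 30.3 and 43.3 CPM in naive libraries (2-fold lower, SE 0.21 on the log2 scale, adjusted p = 0.0032). Utp20, a part of the processome for the small subunit, averaged 64.4 ± 12.5 CPM in effector cells and 115 ± 4.13 CPM in naive cells (log2 fold change -0.84, SE 0.11, adjusted p = 4.96e-05). Fbl, which encodes the rRNA methyltransferase fibrillarin, averaged 28.3 ± 4.37 CPM in effector cells and 48.9 ± 10.3 CPM in naive cells (log2 fold change -0.79, SE 0.16, adjusted p = 0.0022). Effector replicate 2 was the lowest effector library for Polr1b and Utp20 and changed neither call. The exception was Ubtf, the factor that opens rDNA for RNA polymerase I, at 204, 193 and 179 CPM in effector libraries, against 117, 133 and 142 CPM in naive libraries (log2 fold change 0.56, SE 0.09, adjusted p = 0.000363); a second member was called higher when effector replicate 3 was left out. The list had 25 lower with upper quartile scaling and 27 with total counts as scaling.

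Lysosome and autophagy genes moved the opposite way, with 23 of 45 higher and 1 lower and a median of 0.49, against 14.6% called higher over all genes tested. The macrophage and monocyte markers, of cells rich in lysosomes, summed lower in effector libraries, at 1.85 to 6.36 CPM in effector and 9.63 to 16.6 CPM in naive libraries. Whether other cells contributed to the lysosome transcripts was not tested. The counts of lysosome and autophagy genes were 21 and 0 without effector replicate 2 and 16 and 2 with total counts as scaling. They were 19 and 1 without naive replicate 1. Gabarapl1 (ENSMUSG00000030161.8, chromosome 6, 129533160 to 129542346), a protein of the autophagosome membrane, was at 21.9, 25.9 and 27.1 CPM in effector libraries, against 1.63, 1.51 and 2.22 CPM in naive libraries (log2 fold change 3.80, SE 0.18, adjusted p = 1.75e-09). Lamp2, a main protein of the lysosomal membrane, averaged 104 ± 32.5 CPM in effector cells and 48.7 ± 2.47 CPM in naive cells (log2 fold change 1.09, SE 0.17, adjusted p = 0.000439). The protease Ctsd was at 94.5, 128 and 84.5 CPM in effector libraries, against 47.2, 58.1 and 51.3 CPM in naive libraries (log2 fold change 0.97, SE 0.14, adjusted p = 8.63e-05). The 1 member called lower, Gusb, lost its call without naive replicate 2 or 3, effector replicate 2 or 3, or day 4 replicate 1.

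**Figure D3:**
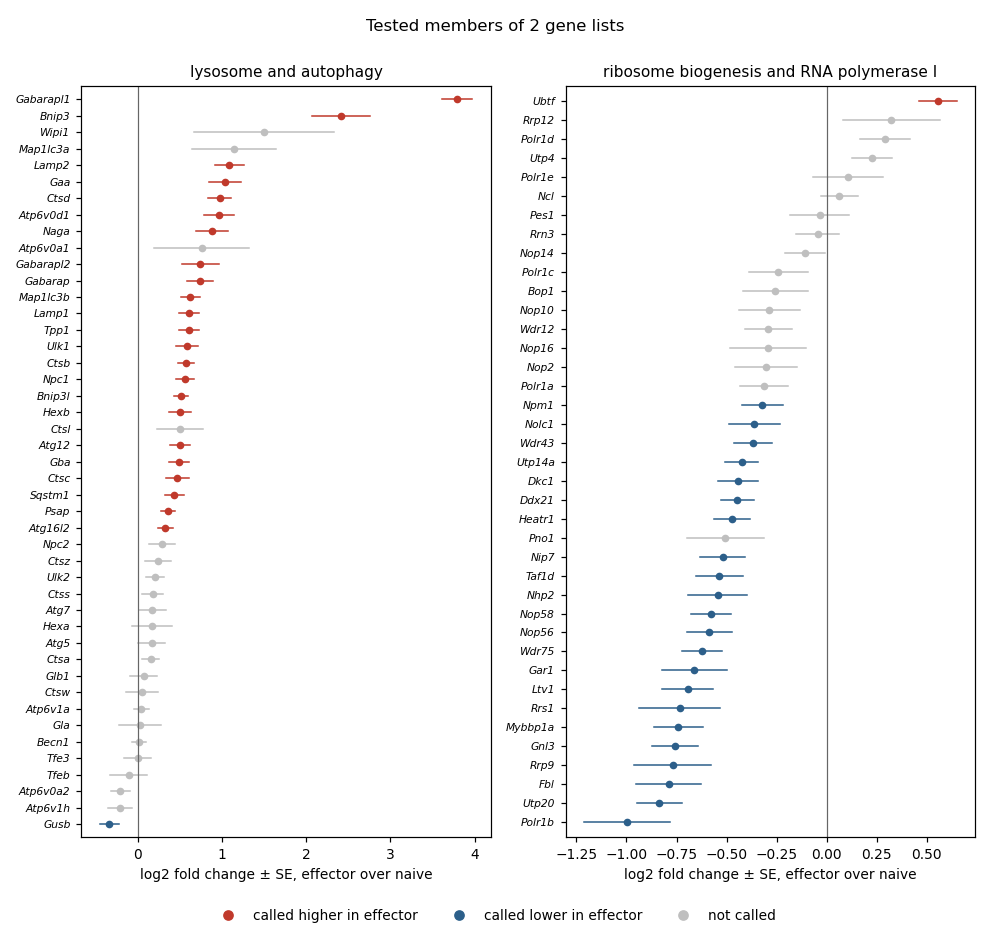
Log2 fold change of effector over naive (point) with its SE (line) for each tested member of the lysosome and autophagy list (left) and of the ribosome biogenesis list (right), coloured by call. Of 45 lysosome and autophagy genes 23 were called higher, with Gabarapl1 at the top, and of 39 ribosome biogenesis genes 22 were called lower, with Polr1b at the bottom.

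The promoter of Ctsd is shown because it is 1 of 2 promoters, of the 16 available for lysosome and autophagy genes called higher, that hold the CLEAR element TCACGTGA known from lysosome genes. The element, a palindrome that contains the E-box CACGTG, was present in 2.19% of the 10466 tested genes with a promoter in the table. Over the whole list, called or not, 5 of 33 promoters held it (15.2%), so its share among the members called higher (12.5%) was no larger than in the list. These counts cover 250 bases before and 50 after each RefSeq start, over all starts of a gene. The sequence is the stretch of 250 bases before the RefSeq start in GRCm38.p6, on the minus strand at chr7:142387828-142388077, 5′ to 3′, with the element in capitals.
Ctsd: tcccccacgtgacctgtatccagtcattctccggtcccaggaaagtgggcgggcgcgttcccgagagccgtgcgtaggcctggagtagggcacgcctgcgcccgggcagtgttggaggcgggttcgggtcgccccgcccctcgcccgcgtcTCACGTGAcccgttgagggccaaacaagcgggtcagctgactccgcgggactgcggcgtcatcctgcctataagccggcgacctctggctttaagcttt

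Redox defence rose in 15 of 34 genes and fell in 1 (47.1% called, against 24.9% over all genes). The counts were 13 and 1 both without effector replicate 2 and with total counts as scaling. Those higher numbered 12 without effector replicate 1 or naive replicate 1, and 11 without naive replicate 2. Txn1, which encodes thioredoxin, was at 52.8, 92.4 and 49.6 CPM in effector libraries, against 25.1, 24.9 and 32.1 CPM in naive libraries (log2 fold change 1.24, SE 0.22, adjusted p = 0.00152). Its effector replicate 2 was the highest library, and the log2 fold change without it was 0.91. Gpx4, which repairs oxidised lipids, averaged 28.5 ± 2.45 CPM in effector cells and 13.7 ± 1.53 CPM in naive cells (log2 fold change 1.06, SE 0.17, adjusted p = 0.000231). Gclm of glutathione synthesis and the transferase Gsto1 rose by 1.08 and 1.71 on the log2 scale. Hmox1, the haem oxygenase, was the 1 called lower, with groups that overlapped (log2 fold change -1.57, SE 0.47, adjusted p = 0.0264). Its call ended without naive replicate 1 or 2, without effector replicate 1 or 3 and in the fit of the 6 libraries alone, and its log2 fold change was -2.54 without effector replicate 2.

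Nucleotide genes that changed included some of degradation, salvage and synthesis. Samhd1, which degrades deoxynucleotides, was at 1968, 2917 and 2231 CPM in effector libraries, against 672, 1029 and 694 CPM in naive libraries (log2 fold change 1.57, SE 0.17, adjusted p = 4.51e-05). The salvage kinases Dck and Tk1 rose, by 0.90 and 0.91 on the log2 scale. Ctps, which makes CTP, averaged 18.7 ± 4.26 CPM in effector cells and 29.4 ± 3.36 CPM in naive cells, and Gart of purine synthesis averaged 40.9 ± 4.59 CPM in effector cells and 63.3 ± 6.82 CPM in naive cells (log2 fold changes of -0.65 and -0.63). In the list of 38 purine and pyrimidine genes 6 rose and 9 fell (39.5% called, against 24.9% over all genes). With total counts as scaling 3 rose and 11 fell. Outside the lists, and chosen after its values were seen, Ampd1 (ENSMUSG00000070385.12, chromosome 3, 103074014 to 103099720), which deaminates AMP in muscle and other tissues, was at 1.87, 1.29 and 0.542 CPM in effector libraries, against 99.4, 108 and 122 CPM in naive libraries (log2 fold change -6.45, SE 0.45, adjusted p = 2.44e-06). Gpd2, the mitochondrial glycerol phosphate dehydrogenase, was at 6.97, 10.2 and 6.5 CPM in effector libraries, against 38.6, 33.6 and 50.6 CPM in naive libraries (log2 fold change -2.38, SE 0.20, adjusted p = 2.65e-06).

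One-carbon enzymes fell in 5 of 27 and rose in 4 (33.3% called, against 24.9% over all genes). Mthfd1l of the mitochondrial folate cycle averaged 42.8 ± 5.15 CPM in effector cells and 77.4 ± 8.01 CPM in naive cells (log2 fold change -0.85, SE 0.11, adjusted p = 2.68e-05). Its partner enzyme Shmt2 averaged 55.9 ± 3.57 CPM in effector cells and 79.4 ± 8.63 CPM in naive cells (log2 fold change of -0.50). Mthfd1, the cytosolic counterpart, fell by 0.84 on the log2 scale. Tyms, the folate-dependent enzyme that makes dTMP, was 1 of those that rose (log2 fold change 1.49, SE 0.17, adjusted p = 1.4e-05). Only 2 of the 4 were called higher without effector replicate 1 or 2, naive replicate 3, day 4 replicate 2 or day 14 replicate 2, and 1 without naive replicate 1 or with total counts as scaling. Of 14 polyamine genes, 28.6% were called, near the 24.9% over all genes. Srm and Amd1 of synthesis fell (-1.02 and -0.61). Sat1, which acetylates polyamines for export, was 1 of 2 that rose (log2 fold change 0.54, SE 0.10, adjusted p = 0.000583); it was the only one without effector replicate 1 or 2 or naive replicate 3.

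Amino acid transporters fell in 6 of 20 and rose in 3 (45% called, against 24.9% over all genes). Slc16a10, a carrier of aromatic amino acids, was at 3.02, 2.24 and 1.24 CPM in effector libraries, against 21.7, 21.2 and 29.2 CPM in naive libraries (log2 fold change -3.46, SE 0.28, adjusted p = 3.42e-07). Slc7a1 for cationic amino acids and Slc38a2 for small neutral ones fell (log2 fold changes of -0.83 and -0.67). Slc43a1, a carrier of large neutral amino acids, was at 19, 27.6 and 21.5 CPM in effector libraries, against 4.06, 4.86 and 4.21 CPM in naive libraries (log2 fold change 2.37, SE 0.29, adjusted p = 1.95e-05). Slc38a9, the arginine sensor of the lysosome, rose (log2 fold change 0.79, SE 0.10, adjusted p = 2.29e-05). Among 42 genes of glutaminolysis, pyruvate and the TCA cycle 7 rose and 3 fell, close to the 24.9% called over all genes, and 4 rose and 7 fell with total counts as scaling; 5 fell without day 4 replicate 2 or 3 or day 14 replicate 1. Fatty acid genes rose in 6 of 36 and fell in 3, a share of 25% called, with none falling without naive replicate 2, 1 without naive replicate 3, and 2 and 4 with total counts as scaling. Acox3, an oxidase of peroxisomes, and Decr1 of mitochondrial oxidation rose (0.74 and 0.96). In the pentose phosphate pathway 1 of 9 genes was called (11.1%, against 24.9% over all genes). None was called without any 1 of 9 libraries, all 3 effector libraries among them.

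Among 45 histone methyltransferases and their partners 14 rose and 8 fell (48.9% called, against 24.9% over all genes). With total counts as scaling 8 rose and 14 fell. Nsd2 (ENSMUSG00000057406.16, chromosome 5, 33820725 to 33897975), which methylates histones over transcribed genes, was at 133, 169 and 158 CPM in effector libraries, against 45.2, 50.4 and 38.9 CPM in naive libraries (log2 fold change 1.77, SE 0.12, adjusted p = 5.49e-08). Ezh2, the catalytic subunit of polycomb repressive complex 2, averaged 96.7 ± 11.1 CPM in effector cells and 52.9 ± 7.29 CPM in naive cells (log2 fold change 0.87, SE 0.11, adjusted p = 3.97e-05). Its partner Jarid2, which brings the complex to chromatin, averaged 54.4 ± 7.94 CPM in effector cells and 77.2 ± 5.3 CPM in naive cells (log2 fold change -0.51, SE 0.13, adjusted p = 0.0088). Kmt2a and Nsd3, both histone methyltransferases, rose by 0.82 and 0.83 on the log2 scale. The arginine methyltransferases Prmt1 and Prmt3 fell (log2 fold changes of -0.72 and -0.77). The number lower was 5 without naive replicate 2 and 4 without naive replicate 3.

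Enzymes of DNA methylation were called higher in 6 of 21 and lower in 2 (38.1% called, against 24.9% over all genes). The counts were 2 and 5 with total counts as scaling, and 3 were higher without naive replicate 2. Tet1, which oxidises methylcytosine, was at 29.3, 20.3 and 30 CPM in effector libraries, against 104, 91.7 and 87.1 CPM in naive libraries (log2 fold change -1.83, SE 0.27, adjusted p = 0.000459). Tet3 of the same family also fell (log2 fold change -0.34, SE 0.09, adjusted p = 0.00914). Dnmt3b, a de novo methyltransferase, rose (log2 fold change 0.66, SE 0.14, adjusted p = 0.00312). Dnmt1, which copies methylation at replication, overlapped between the groups and missed the threshold (log2 fold change -0.23, SE 0.12, adjusted p = 0.182); total counts as scaling called it lower (log2 fold change -0.37, adjusted p = 0.0449), as did the fit of the 6 libraries less effector replicate 2 (log2 fold change -0.38, adjusted p = 0.0152).

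Proteins that bind nucleosomes also moved in both directions. Hmgn1, which binds nucleosomes and loosens linker histone contacts, was at 23.1, 17.6 and 18.2 CPM in effector libraries, against 79.2, 61.8 and 72 CPM in naive libraries (log2 fold change -1.85, SE 0.13, adjusted p = 1.24e-07). Hmgb2, a DNA-bending protein, was at 155, 277 and 164 CPM in effector libraries, against 57, 63 and 54 CPM in naive libraries (log2 fold change 1.77, SE 0.24, adjusted p = 0.000363). Effector replicate 2 was the highest library for Hmgb2, with a log2 fold change of 1.46 without it, and effector replicates 2 and 3 were close for Hmgn1. H1f0, a linker histone of resting cells, averaged 10.4 ± 2.98 CPM in effector cells and 2.76 ± 1.06 CPM in naive cells (log2 fold change 1.90, SE 0.27, adjusted p = 9.61e-05). Cenpa, the histone of centromeres, averaged 109.8 ± 9.58 CPM in effector cells and 47.4 ± 10.6 CPM in naive cells (log2 fold change 1.21, SE 0.17, adjusted p = 0.000149). Lmnb2 of the nuclear lamina and the histone chaperone Nasp fell (-1.17 and -0.52). Of 28 genes for heterochromatin, cohesin, HMG proteins and the nuclear envelope 4 rose and 5 fell, with 2 lower without naive replicate 2 or 3, 3 lower without effector replicate 2, and 1 higher with total counts as scaling. Of 26 histone variants, linker histones and chaperones 6 rose and 2 fell, with 1 lower without naive replicate 3 and 5 each way with total counts as scaling. Shares called in these lists were 32.1% and 30.8%, against 24.9% over all genes.

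The other chromatin classes had members in both directions. Of 23 histone demethylases 8 rose and 2 fell (43.5% called, against 24.9% over all genes). There were 5 higher without effector replicate 1, 4 lower without day 14 replicate 1, and 4 and 5 with total counts as scaling. Kdm4a averaged 76.1 ± 2.97 CPM in effector cells and 39.3 ± 0.934 CPM in naive cells (log2 fold change 0.95, SE 0.10, adjusted p = 7.06e-06). Kdm7a averaged 136 ± 4.53 CPM in effector cells and 212 ± 10.6 CPM in naive cells (log2 fold change -0.64, SE 0.14, adjusted p = 0.00356). Among 40 genes of acetylation and its readers 8 rose and 5 fell (32.5% called, against 24.9% over all genes). There were 5 higher without effector replicate 2 or 3 or naive replicate 1, and 5 and 8 with total counts as scaling. The deacetylase Hdac10 rose (log2 fold change 1.77, SE 0.31, adjusted p = 0.000495). By contrast, Hdac2 and the acetyltransferase Kat2a fell (log2 fold changes of -0.64 and -0.66). Of 37 chromatin remodellers 5 rose and 6 fell, or 4 and 10 with total counts as scaling. The 29.7% called was near the 24.9% over all genes. Chd3 averaged 1294 ± 25.5 CPM in effector cells and 692 ± 88.8 CPM in naive cells (log2 fold change 0.90, SE 0.12, adjusted p = 4.96e-05) and Chd7 averaged 214 ± 18 CPM in effector cells and 339.5 ± 14.1 CPM in naive cells (log2 fold change -0.67, SE 0.10, adjusted p = 0.000101). In polycomb repressive complex 1, 6 of 20 rose and none fell, with 3 each way under total counts as scaling, 2 lower without effector replicate 1, and 1 lower when any day 4 library or day 14 replicate 1 or 2 was left out. Its share called in either direction was 30%, against 24.9% over all genes. Cbx6, a chromodomain subunit, was at 52.9, 49.5 and 55.9 CPM in effector libraries, against 21.8, 17.8 and 22.4 CPM in naive libraries (log2 fold change 1.35, SE 0.15, adjusted p = 5.98e-06).

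GIMAP genes, which encode GTPases of lymphocytes, rose in 6 of 9 and fell in none (66.7% called, against 24.9% over all genes). With any 1 effector or naive library left out 5 were higher, as with total counts as scaling. Gimap4 averaged 3060.5 ± 291 CPM in effector cells and 1358 ± 80.8 CPM in naive cells (log2 fold change 1.17, SE 0.11, adjusted p = 1.32e-06). Gimap7 averaged 196 ± 33.1 CPM in effector cells and 58.8 ± 13.8 CPM in naive cells (log2 fold change 1.73, SE 0.19, adjusted p = 2.29e-05). In the cell death list 12 of 33 rose and 4 fell (48.5% called, against 24.9% over all genes). With total counts as scaling 9 rose and 5 fell. Casp1, the inflammatory caspase, was at 41.3, 48.5 and 62.8 CPM in effector libraries, against 7.39, 6.37 and 3.44 CPM in naive libraries (log2 fold change 3.15, SE 0.22, adjusted p = 3.1e-07). Casp4 rose by 2.73 on the log2 scale, and Casp8, which starts death receptor signals, fell (log2 fold change -0.54, SE 0.09, adjusted p = 0.000283). Bcl2, the survival gene of naive T cells, was at 83.3, 99.1 and 101 CPM in effector libraries, against 417, 388 and 295 CPM in naive libraries (log2 fold change -1.96, SE 0.16, adjusted p = 1.39e-06). Bcl2l2, a survival relative, averaged 17.7 ± 4.29 CPM in effector cells and 3.61 ± 0.712 CPM in naive cells (log2 fold change 2.28, SE 0.25, adjusted p = 7e-06). Of 30 secreted effector molecules and ligands 13 rose and 1 fell (46.7% called, against 24.9% over all genes). There were 8 higher and 2 lower without naive replicate 1 and 2 lower without effector replicate 3. Lta, which encodes lymphotoxin alpha, averaged 14.4 ± 2.22 CPM in effector cells and 5.69 ± 0.26 CPM in naive cells (log2 fold change 1.33, SE 0.28, adjusted p = 0.00245), and Prf1 (perforin) was the 1 that fell (log2 fold change -1.88, SE 0.26, adjusted p = 0.000328).

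Interferon-stimulated and Schlafen genes fell in 11 of 46 and rose in 4, or 32.6% called. Over all genes 10.4% were called lower and 14.6% higher, or 24.9% in all. Without effector replicate 2 the list had 16 lower and 4 higher. It had 15 lower without naive replicate 1, and 17 lower by limma voom with all libraries. Isg15, a ubiquitin-like protein, was at 8.05, 13.7 and 10.1 CPM in effector libraries, against 28.1, 68.6 and 57.8 CPM in naive libraries (log2 fold change -2.28, SE 0.29, adjusted p = 8.59e-05). Slfn5 of the Schlafen family was at 7.48, 6.37 and 10.8 CPM in effector libraries, against 153, 212 and 221 CPM in naive libraries (log2 fold change -4.56, SE 0.29, adjusted p = 1.34e-06). Not all members moved together, since Slfn2, which maintains quiescence, averaged 368 ± 13.8 CPM in effector cells and 169.9 ± 24 CPM in naive cells (log2 fold change 1.12, SE 0.11, adjusted p = 3.8e-06) and Ifi209, a nuclear DNA sensor of the PYHIN family, averaged 607 ± 20.3 CPM in effector cells and 314 ± 27.8 CPM in naive cells (log2 fold change 0.95, SE 0.11, adjusted p = 1.21e-05). Leaving out naive replicate 2 gave 7 higher and 9 lower. The promoters of Isg15 and Slfn5 are shown because both genes fell and both promoters hold GAAA, any 2 bases and GAAA again, the core letters of the interferon-stimulated response element. Of the 11 members called lower 9 had a promoter in the table and 6 of these held it on either strand, against none of 3 for the members called higher and 3.79% of the 10466 tested genes with a promoter. Over the whole list 19 of 36 promoters held it. These counts cover 250 bases before and 50 after each RefSeq start, over all starts of a gene. The sequences are the 250 bases before each RefSeq start in GRCm38.p6, 5′ to 3′ on the strand of the gene, with matches in capitals: Isg15 on the minus strand at chr4:156200819-156201068 with 3 overlapping matches, and Slfn5 on the plus strand at chr11:82951852-82952101 with 1.
Isg15: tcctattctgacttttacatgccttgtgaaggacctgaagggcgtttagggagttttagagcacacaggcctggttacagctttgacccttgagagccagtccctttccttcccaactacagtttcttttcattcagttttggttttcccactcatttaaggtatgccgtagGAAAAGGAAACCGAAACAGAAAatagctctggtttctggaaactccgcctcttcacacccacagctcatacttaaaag
Slfn5: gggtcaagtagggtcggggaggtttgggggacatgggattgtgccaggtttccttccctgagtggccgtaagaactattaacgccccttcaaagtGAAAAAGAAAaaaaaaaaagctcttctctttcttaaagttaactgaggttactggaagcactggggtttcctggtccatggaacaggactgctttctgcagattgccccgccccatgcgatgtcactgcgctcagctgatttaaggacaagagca

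Effector replicate 2 was the library farthest from the naive mean in 1912 of the 4098 called genes (46.7%), against 1304 for effector replicate 3 (31.8%) and 882 for effector replicate 1 (21.5%). Leaving it out kept 3020 calls (73.7%), against 3105 without effector replicate 3 (75.8%), 3128 without effector replicate 1 (76.3%), and 2945 to 3158 without 1 naive library. No called gene turned direction without it. Called genes whose log2 fold change moved towards 0 by over 0.5 numbered 118 without effector replicate 2, 88 without effector replicate 3 and 46 without effector replicate 1. The calls kept without it were 1835 of 2395 higher genes (76.6%) and 1185 of 1703 lower genes (69.6%), and 254 genes were called only without it. Of 10032 genes with a mean log2 CPM of at least 2, effector replicate 2 lay over 4-fold above the mean of the other effector libraries in 43 and over 4-fold below it in 7.

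The reliance on effector replicate 2 was set out by theme, with each gene of the lists counted once per theme. Of 95 surface genes called, 84 kept their call without effector replicate 2 (88.4%), 82 without effector replicate 3 (86.3%) and 85 without effector replicate 1 (89.5%). Signalling genes kept 106 of 126 calls without effector replicate 2 (84.1%), 106 without effector replicate 3 and 99 without effector replicate 1 (78.6%). Metabolic genes kept 99 of 120 (82.5%), against 104 (86.7%) and 102 (85%) without effector replicates 3 and 1, and effector replicate 2 was the farthest library in 82 of the 120 (68.3%). Chromatin genes kept 71 of 87 (81.6%), against 72 (82.8%) and 70 (80.5%). Among these themes, only metabolic genes kept fewer calls without effector replicate 2 than without either other effector library. Transcription factor lists kept 31 of 35 calls without each effector library. The remaining lists, from secreted molecules to interferon genes, kept 57 of 70 (81.4%), against 58 and 58. Of their 205 genes 14 were called only without effector replicate 2, against 1.55% over all genes. Each fit has 1 library fewer, so a lost call need not reflect the library left out.

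Single genes whose call turned on this library had effector replicate 2 at one end. Inpp4a, a phosphatase that removes a lipid product of PI3 kinase, was at 38.5, 52.9 and 31.8 CPM in effector libraries, against 25.7, 24.5 and 29.3 CPM in naive libraries, with a log2 fold change of 0.63 with all libraries (adjusted p = 0.0111) and 0.41 without it (adjusted p = 0.0678). Mapkapk3, a kinase downstream of p38, was at 38, 52.4 and 35.9 CPM in effector libraries, against 30.9, 26.7 and 31.3 CPM in naive libraries, with 0.50 with all libraries (adjusted p = 0.0104) and 0.32 without it (adjusted p = 0.0578), and it also missed the threshold with total counts as scaling and with a replicate block. In both genes effector replicate 2 was the highest library. Effector replicate 2 lay apart from the other effector libraries and near the naive ones for a further pair of genes. Rgs10, a regulator of G protein signals, was at 26, 53.6 and 20 CPM in effector libraries, against 59.6, 54.6 and 62.8 CPM in naive libraries. Slc7a6, a carrier of cationic amino acids, was at 48, 31.7 and 53.7 CPM in effector libraries, against 32.4, 35.4 and 39.3 CPM in naive libraries. Neither was called with all libraries by edgeR (adjusted p = 0.135 and adjusted p = 0.165), and without effector replicate 2 Rgs10 was called lower (-1.36, adjusted p = 0.00432), as it was by limma voom with all libraries (adjusted p = 0.00664), and Slc7a6 higher (0.51, adjusted p = 0.0119).

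Cell division genes had the list median that shifted most without this library. Mki67, the proliferation marker, was at 42.8, 579.6 and 60.8 CPM in effector libraries, against 72.8, 144 and 39.4 CPM in naive libraries. Its log2 fold change was 1.41 with all libraries and -0.72 without effector replicate 2, called in neither (adjusted p = 0.324 with all and adjusted p = 0.367 without it); it was 2.02 without naive replicate 2, which had the highest naive level. Cenpf, a kinetochore protein, was at 2.08, 68.3 and 5.65 CPM in effector libraries, against 9.68, 15.8 and 6.66 CPM in naive libraries, with a log2 fold change of 1.22 with all libraries (adjusted p = 0.445) and -1.48 without effector replicate 2 (adjusted p = 0.0423), when it was called lower. The median over 30 mitosis and kinetochore genes was 1.23 with all libraries, 2 of them called higher, and -0.56 without effector replicate 2, with 2 higher and 4 lower. The 6.67% called with all libraries was below the 24.9% over all genes. By limma voom with all libraries the list median was 0.07. Leaving out any 1 of the 3 naive or 6 tumour libraries left 1 called higher. Ndc80 was called higher with and without effector replicate 2 (0.87 and 0.64 on the log2 scale).

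The DNA replication list of 32 genes had 4 higher and 3 lower, or 21.9% called against 24.9% over all genes. With total counts as scaling it had 1 and 4. Without effector replicate 2 it had 2 higher and 6 lower, and the medians were 0.06 with all libraries and -0.10 without it. Over the fits without 1 other library the counts ranged from 1 to 4 higher and from 1 to 3 lower: 1 and 2 without naive replicate 1, 4 and 1 without naive replicate 2 or effector replicate 1, 2 and 1 without naive replicate 3, and 2 and 3 without day 4 replicate 2 or day 14 replicate 2. Mcm4, a subunit of the replicative helicase, averaged 106 ± 3.33 CPM in effector cells and 74.8 ± 4.99 CPM in naive cells (log2 fold change 0.50, SE 0.09, adjusted p = 0.000446). Pole2, a subunit of DNA polymerase epsilon, was at 6.47, 7.91 and 4.49 CPM in effector libraries, against 30, 28.4 and 25.1 CPM in naive libraries (log2 fold change -2.15, SE 0.20, adjusted p = 1.24e-06). Of 25 G1 cyclins and CDK inhibitors 7 rose and 3 fell (40% called, against 24.9% over all genes). None fell without naive replicate 2, and 1 fell without effector replicate 1. Cdkn1b, the inhibitor p27 of quiescent cells, averaged 509.8 ± 32 CPM in effector cells and 221 ± 30.5 CPM in naive cells (log2 fold change 1.21, SE 0.12, adjusted p = 2.29e-06). E2f2, an E2F factor that restrains T cell division, was at 35.4, 52.2 and 39.6 CPM in effector libraries, against 11.8, 14.7 and 8.11 CPM in naive libraries (log2 fold change 1.88, SE 0.22, adjusted p = 2.33e-05).

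Granule and chemokine genes depended on the library in size rather than in direction. Gzma, which encodes granzyme A, was at 6.54, 153 and 4.49 CPM in effector libraries, against 1.77, 3.11 and 1.53 CPM in naive libraries. It was called with all libraries (log2 fold change 4.67, SE 1.45, adjusted p = 0.0475) and not without effector replicate 2 (1.38, adjusted p = 0.0548), and 16 of the 22 alternatives ended the call, among them leaving out any 1 of the 3 naive or 6 tumour libraries. Gzmb, granzyme B, was at 10.9, 189 and 32.3 CPM in effector libraries, against 1.55, 0.956 and 0.765 CPM in naive libraries, higher in every effector than in every naive library. Its log2 fold change was 6.12 with all libraries (adjusted p = 0.00828) and 4.28 without effector replicate 2 (adjusted p = 0.00249), and it missed the threshold by limma voom with sample weights (adjusted p = 0.192), with the 6 libraries alone (adjusted p = 0.0617) and with a replicate block (log2 fold change 5.51, adjusted p = 0.0968). Ccl5, a chemokine of effector cells, was at 92, 212 and 57.3 CPM in effector libraries, against 3.1, 8.04 and 1.76 CPM in naive libraries, with log2 fold changes of 4.81 with all libraries, 4.13 without effector replicate 2 and 5.63 without naive replicate 2. Lgals1, which encodes galectin-1, was at 41.7, 165 and 72 CPM in effector libraries, against 14.5, 24 and 24.4 CPM in naive libraries (log2 fold change 2.15 with all libraries and 1.45 without effector replicate 2), and was not called without naive replicate 1 (log2 fold change 1.94, adjusted p = 0.0518) or with the 6 libraries alone (adjusted p = 0.0778).

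**Figure D4:**
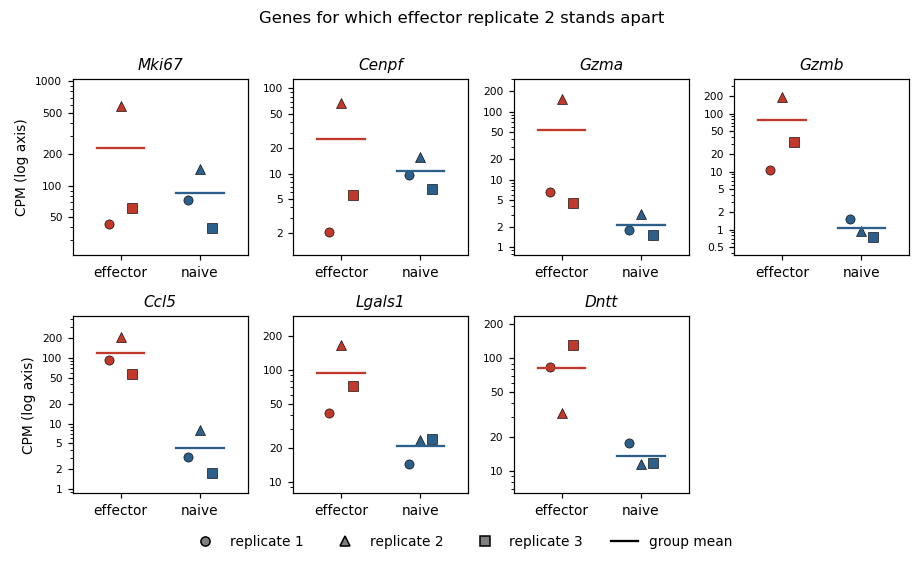
CPM on a log axis for 7 genes in the 3 effector libraries (left in each panel) and the 3 naive libraries (right), with marker shapes for replicates and bars for group means. Effector replicate 2 (triangle) is the highest effector library for Mki67, Cenpf, Gzma, Gzmb, Ccl5 and Lgals1 and the lowest for Dntt.

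A few other genes had effector replicate 2 apart from the rest. Dntt, the nucleotide-adding enzyme of receptor gene rearrangement in thymocytes, was at 84.4, 32.9 and 130.3 CPM in effector libraries, against 17.7, 11.5 and 11.8 CPM in naive libraries (log2 fold change 2.59, SE 0.48, adjusted p = 0.00641). Its log2 fold change was 2.97 without effector replicate 2, the lowest of the effector libraries. Tnfrsf13c, which encodes the receptor for BAFF, was at 36.8, 70.4 and 21.7 CPM in effector libraries, against 12.3, 10.4 and 7.96 CPM in naive libraries (log2 fold change 2.07, SE 0.40, adjusted p = 0.0036), with a log2 fold change of 1.52 without it. B cells, which carry this receptor, had markers that summed lower in effector libraries, with none called. Whether such cells contributed to the Tnfrsf13c level was not tested. After mitosis and kinetochore genes, the list median that shifted most without effector replicate 2 was that of secreted effector molecules, with medians of 0.90 with all libraries and 0.68 without it, followed by homing and egress genes with -0.62 and -0.43.

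**Figure D5:**
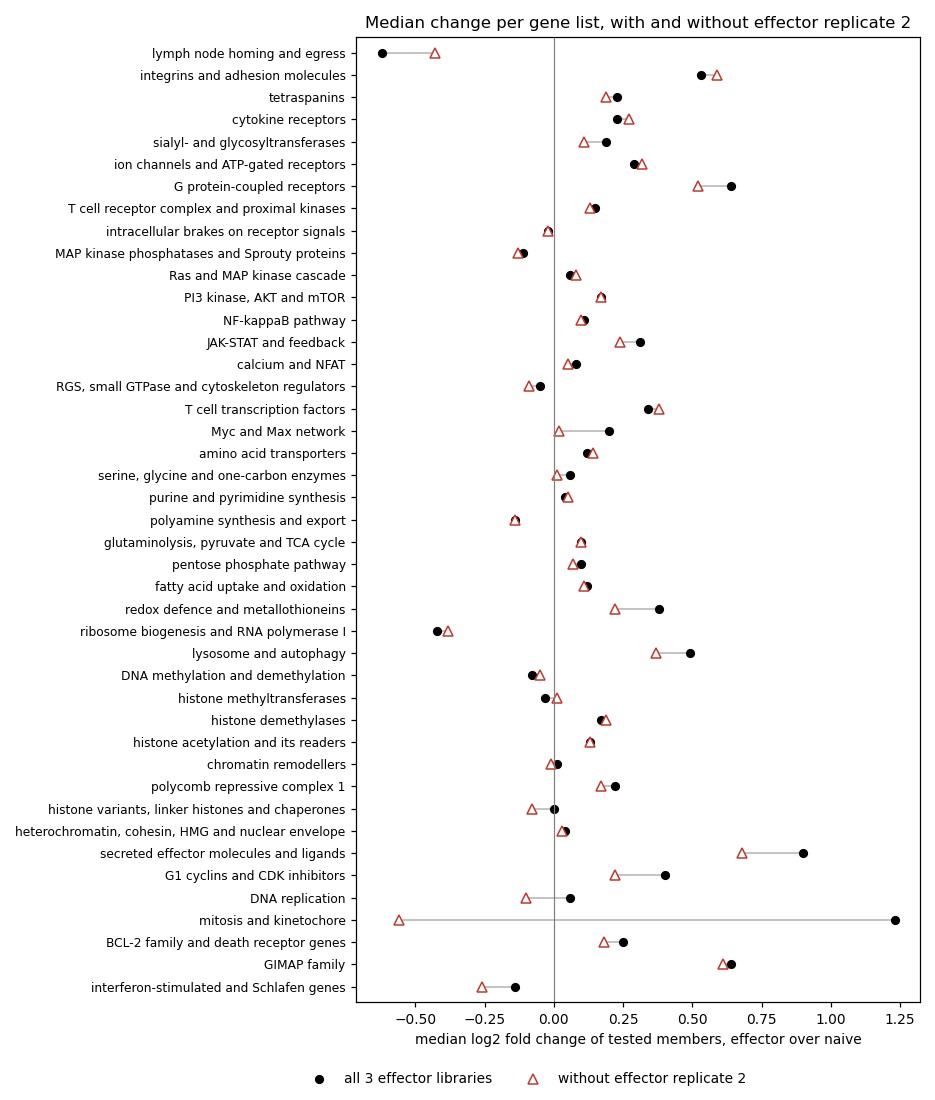
Median log2 fold change of effector over naive in each of 43 gene lists, with all 3 effector libraries (black circles) and without effector replicate 2 (open red triangles). The mitosis and kinetochore list has a median of 1.23 with all libraries and -0.56 without effector replicate 2, the widest gap between the paired symbols.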

How the data were processed

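Bulk RNA-seq was made from sorted OT-I cells, with oligo(dT)-captured RNA, amplified cDNA and transposase libraries, and libraries with few coding reads were rejected, per the labels' protocols. The authors deposited raw gene counts per library. Per the submitters' processing notes, fastp 0.19.6, STAR 2.6.1b and GRCm38 were used; how reads were counted, and against which annotation, is not given in the sources used here. The unstranded counts were used, so a gene and its antisense partner, overlapping genes and close paralogs cannot be told apart. Gene totals leave out the 4 summary lines at the head of each file. Symbols came from GENCODE M21, which matched 55141 of 55401 identifiers and not 260. All 12 libraries in 4 groups were fitted with edgeR 4.0.16 (R 4.3.3; filterByExpr, TMM, robust quasi-likelihood, 8 residual degrees of freedom), and effector minus naive was tested with Benjamini-Hochberg adjustment over 16426 genes. The SE of a log2 fold change is its size divided by the square root of F. Values after ± are SD over 3 libraries. On simulated counts for 16426 genes, 26 of 50 genes changed 1.5-fold, 38 of 50 changed 2-fold, 50 of 50 changed 4-fold and 49 of 50 changed 8-fold were recovered, and 7 of 16226 unchanged genes were called. The changed genes were drawn from those with a mean count of at least 50, so recovery at lower counts was not tested. No simulated library was made to stand apart from its group, as effector replicate 2 did for some genes.

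Gene lists and members were chosen with earlier results of these data known. Genes were named by rule: the 10 highest and 10 lowest protein-coding calls that stood without any 1 effector or naive library, from groups that did not overlap and a log2 CPM averaging 4 or more, up to 4 called members per list and direction, members called against most of their list, the genes that moved most without effector replicate 2, and a panel. Of these, the text describes mainly genes whose call no alternative changed, chosen after their values were seen. The alternatives were other scalings and filters, DESeq2 1.42.0, limma 3.58.1 voom with sample weights, the 6 libraries alone, a replicate block and leaving out each library; the 6 libraries without effector replicate 2 were added after seeing the data. RefSeq promoters of GRCm38.p6 held 32851 windows for 27025 genes. Each window had 300 bases, 250 before and 50 after the start. A gene was counted as holding a motif if any of its windows did. Some genes are not reported here by name; list counts include them.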

Additional observations from a re-analysis of the deposited data

How the results depend on the processing

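The number of genes called was 4098 with all libraries and 4006 to 4554 under other scalings, filters and tools, and 3826 in the fit of the 6 libraries alone. Scaling by total counts gave 1544 called higher, against 2395. Without 1 effector or naive library 3086 to 3420 genes were called, 1850 to 2016 of them higher and 1233 to 1539 lower, and without 1 tumour library 3825 to 4125, 2038 to 2429 of them higher and 1696 to 1921 lower. Of the 4098 calls 2125 (51.9%) stood in every alternative that gave a value. Deviations of same-numbered effector and naive libraries from their group means correlated at -0.00217, 0.102 and 0.011. Those of differently numbered libraries correlated at -0.077 to 0.0747. No label says what the number marks, and deviations within so few libraries cannot decide whether it pairs them. A fit with the replicate number as a block called 3874 genes, 1977 higher and 1897 lower. The 6 libraries without effector replicate 2 gave 3506 calls.

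The log2 fold change of Mki67 was -0.72 without effector replicate 2, -0.75 in the fit of the 2 groups alone without it, and up to 2.02, without naive replicate 2, when another library was left out. That of Cenpf was -0.77 with limma voom, -1.48 without effector replicate 2, -1.51 in the fit of the 2 groups alone without it, and up to 1.74, without effector replicate 1, when another library was left out. The cause was not tested.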

Other observations

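The following genes lie outside the gene lists and were chosen after their values were seen. Several long noncoding RNAs were higher in effector cells. Mir155hg, the host transcript of miR-155, was at 14.5, 14 and 21.7 CPM in effector libraries, against 2.51, 1.59 and 1.15 CPM in naive libraries (log2 fold change 3.24, SE 0.27, adjusted p = 9.33e-07). C030034L19Rik, which has no described role here, was at 69.4, 119 and 42.6 CPM in effector libraries, against 0.222, 0.398 and 0.536 CPM in naive libraries (log2 fold change 7.62, SE 0.52, adjusted p = 1.34e-06). Firre, a nuclear RNA of the X chromosome, averaged 21.8 ± 2.51 CPM in effector cells and 7.43 ± 1.39 CPM in naive cells (log2 fold change 1.56, SE 0.21, adjusted p = 4.54e-05). Effector replicate 2 was the highest library for C030034L19Rik, with a log2 fold change of 7.16 without it.

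Ahnak, a very large scaffold protein of the cell periphery, was at 1608, 2358 and 2649 CPM in effector libraries, against 388, 367 and 510.3 CPM in naive libraries (log2 fold change 2.39, SE 0.19, adjusted p = 3.8e-06). Ncf1, a subunit of the phagocyte NADPH oxidase, was at 176, 371 and 351 CPM in effector libraries, against 69.3, 64 and 63.7 CPM in naive libraries (log2 fold change 2.19, SE 0.24, adjusted p = 8.24e-05). Among genes lower in effector cells, Timp2, an inhibitor of matrix metalloproteinases, averaged 3.31 ± 1.07 CPM in effector cells and 48.9 ± 3.83 CPM in naive cells (log2 fold change -3.89, SE 0.34, adjusted p = 3.07e-06). Abca1, a cholesterol exporter, was at 4.53, 3.53 and 7.5 CPM in effector libraries, against 46.2, 49.7 and 26.6 CPM in naive libraries (log2 fold change -2.97, SE 0.40, adjusted p = 0.000174). Sgk1, a kinase regulated by PI3 kinase and by salt, averaged 17.8 ± 1.75 CPM in effector cells and 88.9 ± 7.29 CPM in naive cells (log2 fold change -2.32, SE 0.13, adjusted p = 1.05e-08). The groups did not overlap in any of these 8 genes.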
